A study of Homo sapiens with 8 samples.

Results

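Replicates 1 and 4 were compared with replicates 2 and 3 by RNAseq of HEK293T cells in 8 libraries. The cells had received 100 µM DZNep (4 libraries) or vehicle alone (Control, 4 libraries) for 48 h. All 8 libraries of the series were members, 4 in each pair of replicates, with 2 Control and 2 DZNep libraries in each. The pairs of replicates were chosen from these libraries by their scores on the second principal component, so differences between the pairs are descriptions and carry no test. The labels give each treatment the numbers 1 to 4 and name no culture date or extraction batch. The study called the replicates biological, and all cells came from a single line.

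HEK293T cells derive from human embryonic kidney and express SV40 large T antigen. DZNep (3-deazaneplanocin A), an analog of adenosine, blocks AHCY, the enzyme that clears S-adenosylhomocysteine, the product left when a methyl group is taken from S-adenosylmethionine (SAM). The sample labels name DMEM as the medium, and the study's methods name RPMI. Of the 9 markers that HEK293T cells express, including VIM, KRT8 and PAX2, 9 passed the filter on low counts. Their summed level was 1163 to 1500.0 CPM (counts scaled to 1000000 per library) in replicates 1 and 4 and 973 to 1252 CPM in replicates 2 and 3. Of the 11 markers of blood cells, 8 passed, and their sum was 11.1 to 17.6 CPM in replicates 1 and 4 and 11.3 to 18.3 CPM in replicates 2 and 3.

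A cell's RNA holds mRNAs with a poly(A) tail, mitochondrial transcripts made from the small circular genome of that organelle, and short structural RNAs. Library preparation keeps these in different proportions, and mRNAs also differ in length and base composition. In bulk libraries, fewer cells of a type and less RNA per cell cannot be told apart.

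Library totals were 25043058 to 41322529 counts in replicates 1 and 4 and 39505214 to 44902779 counts in replicates 2 and 3. In Control 1, the shallowest library, a count of 0 is compatible with shares up to 1.2e-05%, by counting error alone. Component 1 held 60.4% of the variance and separated DZNep from Control. Component 2 held 23.7%. Its scores in Control replicates 1 to 4 were 29.7, -80.5, -59.3 and 64.7, and in DZNep replicates 1 to 4 they were 14.3, -22.0, -11.0 and 64.0. The libraries of replicates 1 and 4 all scored above 0 and the others below. The libraries nearest the boundary were DZNep 1 and DZNep 3, and the Control libraries lay farther apart than the DZNep libraries.

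**Figure D1:**
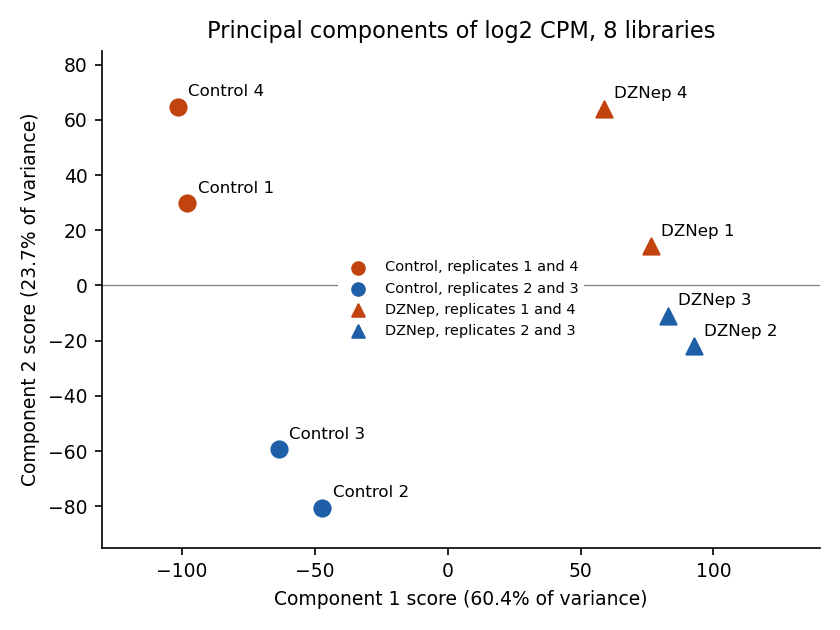
Scores of the 8 libraries on components 1 and 2 of log2 CPM (points, shaped by treatment and coloured by pair of replicates). Replicates 1 and 4 lie above 0 on component 2, from 14.3 (DZNep 1) to 64.7 (Control 4), and replicates 2 and 3 lie below, from -11.0 (DZNep 3) to -80.5 (Control 2).

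A gene was called apart where the fitted difference between the pairs of replicates exceeded 1 on the log2 scale (a fold of 2) and where, within Control and within DZNep, both libraries of one pair lay above both of the other in CPM. Of 21284 genes tested, 1117 (5.25%) were apart and higher in replicates 1 and 4, and 511 (2.40%) were apart and lower. These shares follow from the choice of the pairs and are not a result about them. Scaling by library totals alone in place of TMM moved the median difference of all genes from 0.03 to -0.12 and gave 728 higher and 904 lower, so medians of lists nearer to 0 than that shift have no settled sign. The replicate number, taken from the labels, changed 5815 genes (27.3%) in edgeR's quasi-likelihood F test over the 4 numbers at an adjusted p under 0.05. The count was 1300 without replicate 4. The biological coefficient of variation, the relative spread between libraries beyond counting error, was 28.9% with treatment alone in the fit, 18% with the pair of replicates added and 15.4% with the replicate number in its place.

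The sequences below show the coding window of 60 bases with the most A in 7 mRNAs, 4 higher and 3 lower in replicates 1 and 4. They are shown because A-rich coding sequence was more frequent among the long mRNAs that were higher in replicates 1 and 4 than among all long mRNAs. Over protein-coding genes of all lengths the direction was the opposite, as given below the sequences. HMGN5, with a canonical transcript of 2099 nt, is shorter than the 2500 nt used below for a long mRNA. NUPR1, a higher gene that is not shown, had 25.2% A in its coding sequence. Its canonical transcript was 5291 nt, with a coding sequence of 246 nt. HMGN5, ANKRD18B, IRS4, SEC24C and IGF2BP3 were named by a rule, and EIF5B and LUC7L3 were chosen after their values were seen. All are read 5′ to 3′ on the transcript strand of GRCh38 from GENCODE's canonical transcripts, with A in capitals.

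HMGN5 (chrX:81115076-81115135, minus strand, exon 7 of 7): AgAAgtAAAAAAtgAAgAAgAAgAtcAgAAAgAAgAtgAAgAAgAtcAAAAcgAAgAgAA
ANKRD18B (chr9:33541175-33543191, plus strand, across exons 9 and 10 of 19): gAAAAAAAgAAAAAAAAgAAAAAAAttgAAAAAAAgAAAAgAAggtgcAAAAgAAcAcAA
EIF5B (chr2:99363668-99363727, plus strand, exon 5 of 24): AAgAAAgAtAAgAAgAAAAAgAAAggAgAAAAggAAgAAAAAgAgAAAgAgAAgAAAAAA
LUC7L3 (chr17:50745781-50745840, plus strand, exon 8 of 10): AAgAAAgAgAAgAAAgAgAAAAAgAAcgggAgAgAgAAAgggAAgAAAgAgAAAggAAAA
IRS4 (chrX:108733603-108733662, minus strand, exon 1 of 2): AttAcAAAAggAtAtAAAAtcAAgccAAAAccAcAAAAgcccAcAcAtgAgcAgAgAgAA
SEC24C (chr10:73767112-73767837, plus strand, across exons 14 and 15 of 23): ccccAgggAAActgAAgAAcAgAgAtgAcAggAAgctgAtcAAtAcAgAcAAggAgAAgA
IGF2BP3 (chr7:23345945-23346004, minus strand, exon 8 of 15): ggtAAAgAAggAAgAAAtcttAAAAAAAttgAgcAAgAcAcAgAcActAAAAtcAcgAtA

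The windows of the 4 higher mRNAs held 37 to 44 A of 60 bases, and those of the 3 lower mRNAs held 27 to 32. Over protein-coding genes with a canonical transcript over 2500 nt and a mean log2 CPM of at least 3, the median content of the most A-rich window was 36 A in the 36 genes apart and higher, 30 in the 192 apart and lower and 28 in all 7086. A run of at least 8 A in the coding sequence was present in 12 of the 36, in 16 of the 192 and in 6.22% of all. Coding sequence over 35% A was present in 23 of the 36 genes (63.9%), in 1 of the 192 (0.521%) and in 403 of the 7086 (5.69%), and the value of 35% was chosen after seeing the data. The median share of A in the coding sequence was 37.2%, 28.4% and 27.0% in these classes. Over 15324 protein-coding genes of all lengths and levels, the order was reversed. The median share was 24.2% in the 379 apart and higher, 27.5% in the 330 apart and lower and 25.4% in all. Spearman's correlation across these genes between this share and the difference was -0.21.

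HMGN5 encodes a nucleosome-binding protein of the HMGN family. Its levels in Control replicates 1 to 4 were 264, 79.3, 77.9 and 390 CPM, and in DZNep replicates 1 to 4 they were 68.5, 30.6, 47.3 and 125 CPM. Both libraries of replicates 1 and 4 lay above the other 2 in each treatment. The difference was 1.69 ± 0.22 (SE) on the log2 scale, where the spread behind the SE was made small by the choice of the pairs, here and below. EIF5B, which joins the ribosomal subunits at the start of translation, was at 656, 239, 278 and 853 CPM in Control and at 256, 204, 189 and 427 CPM in DZNep, a difference of 1.17. LUC7L3, a splicing factor, was at 289, 106, 117 and 512 CPM in Control and at 134, 112, 106 and 248 CPM in DZNep, a difference of 1.33. For both genes, replicate 4 was the highest library in each treatment. ANKRD18B was at 88.0, 17.6, 27.3 and 146 CPM in Control and at 25.9, 14.9, 16.8 and 48.6 CPM in DZNep. ANKRD18B and ANKRD36C share near-identical sequence with other genes of their family, so the assignment of their reads is uncertain.

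Among genes apart with a mean log2 CPM of at least 3, MALAT1, a nuclear lncRNA, had the highest difference, 2.02 ± 0.34 (SE). Its levels in Control replicates 1 to 4 were 845, 117, 209 and 1555 CPM, and in DZNep they were 166, 96.1, 119 and 315 CPM. The groups did not overlap within a treatment, and the gap was wider in Control (log2 difference 2.87) than in DZNep (1.10). BCYRN1, a short RNA made by RNA polymerase III and known as BC200, was at 194, 68.5, 60.8 and 298 CPM in Control and at 759, 264, 380 and 1072 CPM in DZNep. Its difference between the pairs, 1.72 ± 0.18 on the log2 scale, had the same direction in both treatments, and was 0.94 after the length trend was removed. NUPR1, a stress-induced transcriptional regulator, was at 102, 12.9, 31.7 and 65.9 CPM in Control and at 58.9, 16.6, 35.9 and 79.0 CPM in DZNep, with no overlap within a treatment.

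Mitochondrially encoded genes were higher in replicates 1 and 4. They took 7.76% and 13.7% of the counts in Control replicates 1 and 4, and 3.02% and 3.16% in Control replicates 2 and 3. In DZNep the shares were 7.04% and 10.1% in replicates 1 and 4, and 4.25% and 4.44% in replicates 2 and 3. The share therefore did not overlap between the pairs over all 8 libraries. Of 13 mitochondrially encoded mRNAs, 13 were apart and higher, with log2 differences of 1.11 to 1.78 and a median of 1.58, beside a median of 0.03 over all genes tested. MT-ND2, a subunit of respiratory complex I, was at 4189, 1195, 1304 and 7722 CPM in Control and at 4914, 2272, 2730 and 6918 CPM in DZNep. MT-ND6, a complex I subunit encoded on the other strand of the mitochondrial genome, was at 3051, 827, 897 and 5560 CPM in Control and at 2122, 1127, 1168 and 3289 CPM in DZNep. MT-CO1, the core subunit of complex IV, reached 48575 CPM in Control replicate 4 and lay at 9212 CPM in Control replicate 2. Of 20 mitochondrial tRNA genes tested, 13 were apart and higher (65%, beside 5.25% of all genes). Among them MT-TL1, a leucine tRNA, was at 197, 40.6, 56.8 and 318 CPM in Control and at 160, 93.1, 76.3 and 256 CPM in DZNep.

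Nuclear-encoded mRNAs of the same complexes moved less. Of 76 nuclear-encoded respiratory chain subunits, 14 were apart and higher (18.4%, beside 2.56% of protein-coding genes). Of these subunits 0 were apart and lower, and the median difference was 0.68. NDUFA7, a complex I subunit, was at 18.3, 5.95, 6.91 and 22.7 CPM in Control and at 6.02, 3.64, 3.87 and 9.89 CPM in DZNep. Of 78 cytosolic ribosomal proteins, 13 were apart and higher (16.7%, beside the same 2.56%) and 0 lower, with a median of 0.73. RPS18, of the small ribosomal subunit, was at 3268, 1261, 1605 and 4105 CPM in Control and at 1361, 786, 950 and 2139 CPM in DZNep. Ribosomal protein genes took 7.36% to 12.7% of the counts in replicates 1 and 4 and 5.42% to 9.04% in replicates 2 and 3. These ranges over both treatments overlapped, but the pairs did not overlap within a treatment. In Control the shares were 12.3% and 12.7% in replicates 1 and 4, and 7.63% and 9.04% in replicates 2 and 3. In DZNep they were 7.36% and 9.30%, and 5.42% and 6.14%. The median canonical lengths of these lists were 784 and 827 nt, although the canonical transcripts of single members were long. That of RPL14 was 7136 nt, with 6355 nt of it after the coding sequence. The lengths of the transcripts present in these cells were not measured. After a trend on canonical length was removed from each library, the medians of the lists were 0.21 and 0.34, while the difference of RPL14 moved from 1.14 to 1.55. The median of the mitochondrially encoded mRNAs was then 1.19.

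Transcript length moved with the pair of replicates. Over 15324 protein-coding genes, Spearman's correlation across genes between canonical transcript length and the difference was -0.54, at -0.47 in Control and -0.59 in DZNep; genes share the libraries and are not independent. The median length was 1576 nt in the 379 genes apart and higher, 6002 nt in the 330 apart and lower and 3306 nt in all. The median difference over 10 bins of length fell from 0.57 in the shortest bin (median 947 nt) to -0.44 in the longest (median 9577 nt). In the shortest bin 153 genes were apart and higher and 11 lower, and in the longest 10 were higher and 108 lower. The shares that length and the other properties have in the differences were not tested.

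**Figure D2:**
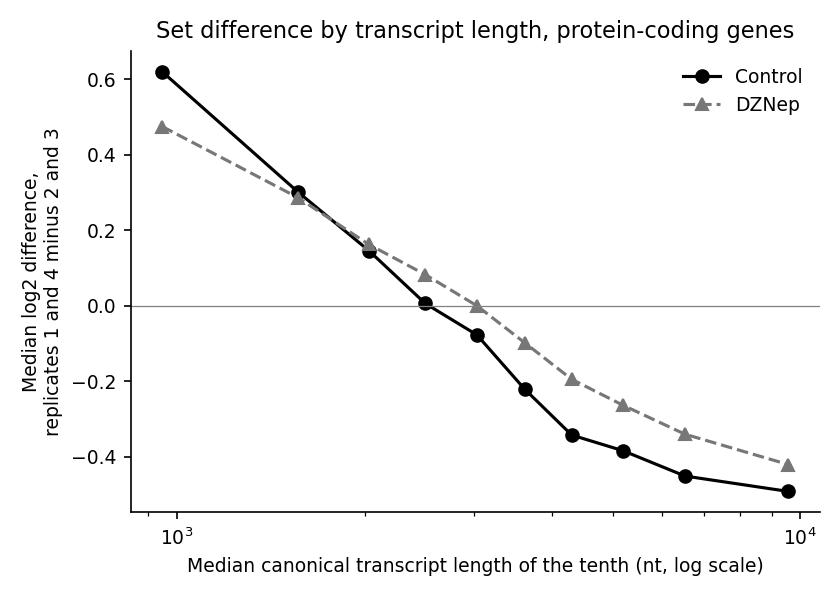
Median log2 difference between replicates 1 and 4 and replicates 2 and 3 (y axis) in 10 equal bins of protein-coding genes by canonical transcript length in nt (x axis, log scale), in Control (circles) and DZNep (triangles). The medians fall from 0.62 and 0.48 in the shortest bin to -0.49 and -0.42 in the longest.

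Several classes of noncoding RNA held larger shares of genes apart and higher than protein-coding genes did. Of 75 genes of the class misc_RNA 32 were (42.7%), as were 18 of 55 snRNA genes (32.7%), 11 of 53 snoRNA genes (20.8%), 151 of 890 processed pseudogenes (17%) and 369 of 3544 lncRNA genes (10.4%), beside 392 of 15337 protein-coding genes (2.56%). The shares apart and lower in these classes, in the same order, were 2.67%, 1.82%, 7.55%, 4.16% and 2.43%, beside 2.15% of protein-coding genes. Reads of short RNA genes and processed pseudogenes can be shared with near-identical copies, so these counts are uncertain.

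The genes lower in replicates 1 and 4 were mostly long mRNAs. IRS4, an insulin receptor substrate that HEK293 cells express strongly, was at 105, 596, 374 and 61.6 CPM in Control and at 43.2, 70.3, 56.9 and 22.7 CPM in DZNep. In both treatments replicate 4 was the lowest library and replicate 2 the highest. KLHL11, a substrate adaptor of a ubiquitin ligase, had the lowest difference among genes apart with a mean log2 CPM of at least 3, -1.97 ± 0.34 (SE), and was at 2.68, 15.2, 8.39 and 1.64 CPM in Control and at 22.0, 47.4, 36.4 and 5.83 CPM in DZNep. SEC24C, a coat protein of vesicles leaving the endoplasmic reticulum, was at 14.3, 60.6, 45.6 and 7.74 CPM in Control and at 70.1, 92.0, 84.3 and 24.1 CPM in DZNep. DZNep 1 lay close to replicates 2 and 3 for SEC24C, while DZNep 4 stood well below. IGF2BP3, an RNA-binding protein of fetal tissues, was at 28.8, 122, 93.3 and 16.6 CPM in Control and at 24.7, 33.0, 36.4 and 12.4 CPM in DZNep. NOMO2 and NOMO3, with differences of -1.69 and -1.89, are near-identical copies whose reads cannot be told apart with certainty. FAM169A, MFAP3, TBC1D14 and CRACD completed the 10 lowest, with differences of -1.55 to -1.63.

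**Figure D3:**
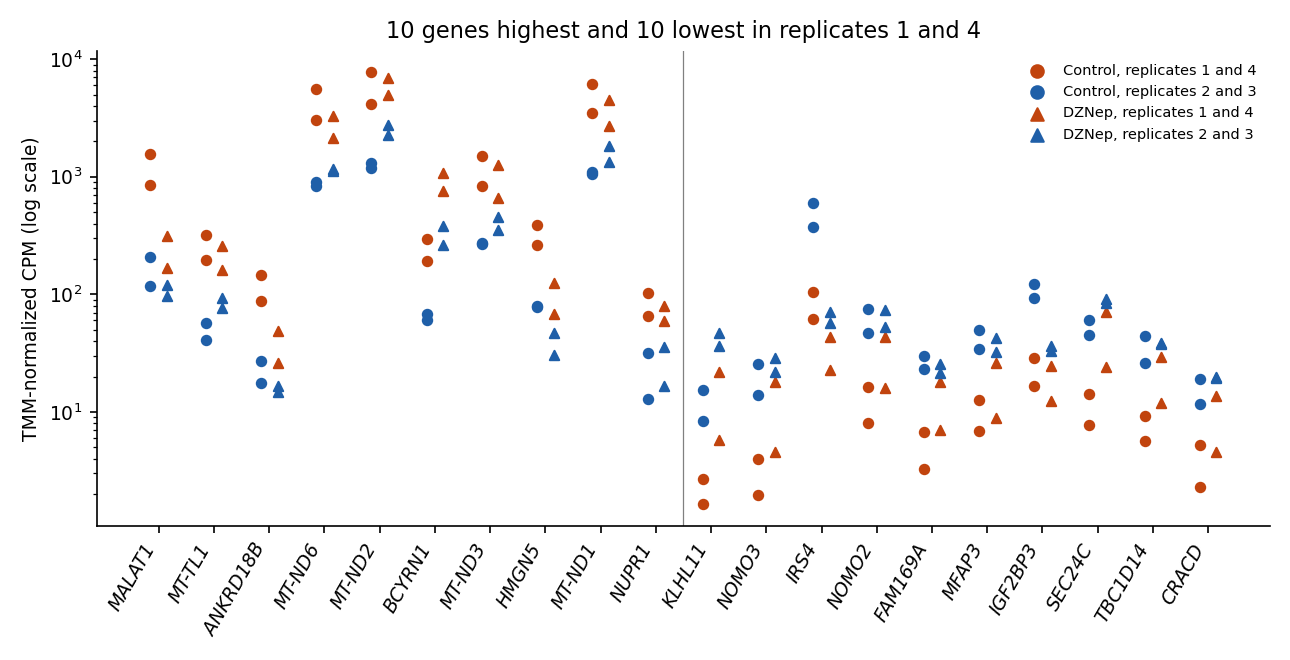
TMM-normalized CPM (log scale) of the 10 genes with the highest and the 10 with the lowest differences among genes apart with a mean log2 CPM of at least 3; each point is a library, shaped by treatment and coloured by pair of replicates. The pairs do not overlap within a treatment because the genes were selected so, and DZNep 1 sits nearer replicates 2 and 3 than DZNep 4 does for most of the lower genes.

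A working label given to these pairs, which is not the study's, described them as differing in nutrient stress, mitochondrial share and growth state. The study itself reported high correlation between its RNAseq replicates, which clustered together by principal components. The mitochondrial share differed, as given above, between pairs that were chosen on these same counts, so this is a description and no support for the label. The lists of the other programs are given here by their counts and medians. Cells induce ATF4 targets and genes of the integrated stress response when amino acids run short. Of 37 such genes, 2 were apart and higher and 0 lower, and the difference was positive for 21. The median difference was 0.04, and it was 0.18 after the length trend was removed. The share higher was 5.41%, beside 5.25% of all genes and 2.56% of protein-coding genes. The 2 genes were NUPR1 and EIF4EBP1, a repressor of cap-dependent translation at 702, 287, 431 and 778 CPM in Control and at 285, 141, 205 and 399 CPM in DZNep.

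The median of the ATF4 list varied with the replicate number in another order. In the F test over the 4 numbers 22 of its 37 members changed (59.5%, beside 27.3% of all genes). High shares were not particular to this list or to the glucose-responsive list below. The share was 83.3% of cytosolic ribosomal proteins, 63.0% of p53 targets and 46.9% of ER chaperones and ATF6/XBP1 genes. It was 22% of DNA replication and G1/S genes and 20% of immediate early genes. The median deviation of the members from the mean of their treatment was 0.19, -0.19, 0.22 and -0.26 on the log2 scale in Control replicates 1 to 4, and 0.16, -0.26, 0.08 and -0.02 in DZNep. Replicates 1 and 3 lay above the mean and replicates 2 and 4 below it in both treatments. ATF3, a stress-induced transcription factor, was at 203, 68.7, 186 and 59.1 CPM in Control and at 113, 79.5, 126 and 78.2 CPM in DZNep (edgeR adjusted p = 0.00174 for the replicate number). DDIT3, which encodes the stress factor CHOP, was at 41.6, 16.6, 35.4 and 24.8 CPM in Control and at 5.76, 3.32, 5.51 and 4.81 CPM in DZNep (edgeR adjusted p = 0.00321). Both genes were highest in replicates 1 and 3 in each treatment, and their differences between the pairs were -0.04 and 0.31. CHAC1, a glutathione-degrading enzyme, was at 123, 55.9, 66.6 and 82.1 CPM in Control and at 84.0, 34.9, 55.6 and 60.1 CPM in DZNep. Its pairs did not overlap in either treatment, with a difference of 0.71. ATF3, DDIT3, CHAC1 and TXNIP were named after their values were seen.

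Of 14 glucose-responsive MondoA targets, 11 changed with the replicate number (78.6%, beside 27.3% of all genes) and 0 were apart. The difference was positive for 3 of the 14, with a median of -0.32 that was -0.22 after the length trend was removed. TXNIP, which restrains glucose uptake, was at 108, 88.0, 134 and 50.9 CPM in Control and at 173, 125, 208 and 104 CPM in DZNep (edgeR adjusted p = 0.000766 for the replicate number). It was highest in replicate 3 and lowest in replicate 4 in each treatment, so the pairs overlapped.

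Over all protein-coding genes 2.56% were apart and higher and 2.15% were apart and lower. Of 33 amino acid transporters 1 was apart and higher (3.03%). Of 23 cytosolic aminoacyl-tRNA synthetases and 29 enzymes of serine synthesis and one-carbon metabolism 0 were apart. The medians of these lists were -0.11, -0.03 and -0.05. Of 21 glycolysis enzymes and 26 hypoxia-responsive genes 0 were apart, with medians of -0.15 and -0.19. Of 50 DNA replication and G1/S genes 0 were apart, and of 50 mitosis genes 1 was apart and lower (ECT2, a regulator of cytokinesis), with medians of -0.17 and -0.13. Of 37 replication-dependent histone genes, which cells express as they copy DNA, 3 were apart and higher (8.11%), with a median of 0.34 that was -0.14 after the length trend was removed. Of 15 lipogenic genes 1 was apart and lower (GPAM, which starts triglyceride synthesis), with a median of -0.45 that was -0.14 after the length trend was removed. The composite site of ATF4 and C/EBP proteins, TGATGNAA on either strand, was present in 4 of 359 promoters of 300 bases of genes apart and higher (1.11%), in 8 of 292 of genes apart and lower (2.74%) and in 248 of 13562 of all genes tested (1.83%), with promoters from RefSeq (GRCh38.p14).

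Of 36 interferon-stimulated genes 4 were apart and higher (11.1%, beside 5.25% of all genes and 2.56% of protein-coding genes), with a median of 0.47. Their summed level overlapped between the pairs, at 259.8 to 373 CPM in replicates 1 and 4 and 268 to 363 CPM in replicates 2 and 3. ISG15, a ubiquitin-like protein, was at 17.6, 5.06, 9.72 and 14.9 CPM in Control and at 5.25, 2.65, 3.48 and 6.78 CPM in DZNep. Of 30 immediate early genes 1 was apart and higher (3.33%, near the 2.56% of protein-coding genes). It was JUND, a subunit of the AP-1 factor, at 191, 49.6, 86.4 and 216 CPM in Control and 89.5, 49.4, 77.1 and 120 CPM in DZNep. Of 9 fibroblast markers 8 had a positive difference, with a median of 0.72 that was 0.95 after the length trend was removed. Among them 1 was apart and higher, COL1A2, a chain of type I collagen, with a difference of 1.29 ± 0.59 (SE). Its levels were 57.0, 24.9, 24.3 and 44.6 CPM in Control and 43.6, 0.402, 28.2 and 39.9 CPM in DZNep, so DZNep 2 alone was near 0. The fibroblast list summed to 175 to 248 CPM in replicates 1 and 4 and to 98.4 to 218 CPM in replicates 2 and 3, and its part in the differences was not tested.

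**Figure D4:**
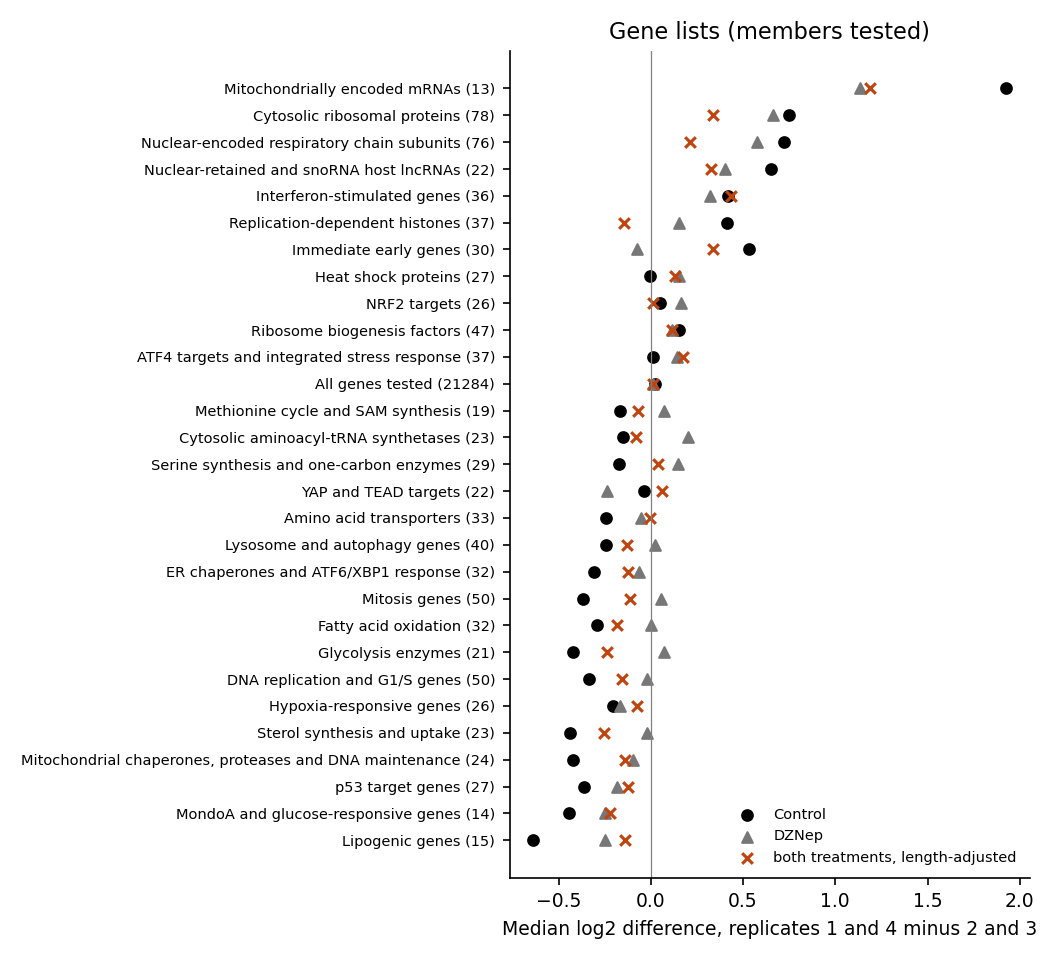
Median log2 difference between replicates 1 and 4 and replicates 2 and 3 over the tested members of each list with at least 10 of them, in Control (circles), in DZNep (triangles) and over both treatments after the trend on transcript length was removed (crosses). Mitochondrially encoded mRNAs stand at 1.93 in Control and 1.14 in DZNep, while the ATF4 list stands at 0.01 and 0.14.

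The response to DZNep was then compared between the pairs of replicates, with the replicate number as a block in edgeR's quasi-likelihood test. In replicates 1 and 4, 2560 genes (12%) rose and 3457 (16.2%) fell at an adjusted p under 0.05 and a log2 change over 1. In replicates 2 and 3, 2509 (11.8%) rose and 2464 (11.6%) fell. Both pairs called 3656 genes in the same direction and 11 in opposite directions. The difference between the responses passed the thresholds for 68 genes (0.319%) more positive in replicates 1 and 4 and for 115 (0.540%) more negative. For 181 of these 183 genes the gap between the pairs was wider in Control than in DZNep. The same share over all genes is not given here. On component 2, by which the pairs were chosen, the Control libraries also lay farther apart, so this count is not a result about the 183 genes. Without the block the test called 0 in either direction, with 1968 genes at an unadjusted p under 0.05, and DESeq2 with the block called 56 and 63. Leaving out replicate 1, 2, 3 or 4 gave 5, 40, 349 and 24 more positive and 13, 54, 298 and 16 more negative. The pairs were chosen on these libraries and the block left few degrees of freedom, so these p-values are descriptive.

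MAT2A makes SAM from methionine and is induced in many cells when SAM falls. Its levels in Control replicates 1 to 4 were 57.7, 189, 160 and 55.6 CPM, and in DZNep they were 90.4, 101, 85.1 and 64.1 CPM. The Control libraries of replicates 1 and 4 lay well below the other 2, and the DZNep libraries lay close together with an overlap between the pairs. With DZNep the fitted level changed by 0.43 ± 0.13 (SE) on the log2 scale in replicates 1 and 4 and by -0.91 ± 0.13 in replicates 2 and 3. The difference of 1.33 ± 0.18 had an adjusted p of 0.00589 in edgeR's quasi-likelihood test, and of 0.0536 without replicate 1 and 0.312 without the block.

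AHCY, the target of DZNep, was at 228, 257, 238 and 226 CPM in Control and at 217, 156, 178 and 218 CPM in DZNep. Its responses were -0.06 ± 0.12 (SE) and -0.57 ± 0.12 in replicates 1 and 4 and in replicates 2 and 3, and the difference did not pass (edgeR adjusted p = 0.118). MTR, the methionine synthase that recycles homocysteine, fell by 1.40 on the log2 scale in replicates 1 and 4 and fell by 1.67 in replicates 2 and 3, and its difference did not pass (edgeR adjusted p = 0.449).

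MALAT1 fell by 2.32 ± 0.13 (SE) in replicates 1 and 4 and fell by 0.55 ± 0.13 in replicates 2 and 3, on the log2 scale, a difference of -1.78 (edgeR adjusted p = 0.000887). NEAT1, a lncRNA that builds nuclear paraspeckles, was at 100, 47.7, 40.1 and 155 CPM in Control and at 56.6, 62.9, 66.8 and 61.7 CPM in DZNep. In Control replicates 1 and 4 lay above the other 2, and in DZNep they lay slightly below them (a log2 difference of -0.13), and the responses were -1.08 ± 0.14 in replicates 1 and 4 and 0.57 ± 0.14 in replicates 2 and 3. KCNQ1OT1 is an imprinted antisense lncRNA whose reads may be shared with its host gene. Its difference, -2.26, was the most negative among genes past the thresholds with a symbol and a mean log2 CPM of at least 3. The level in Control was 20.1, 4.72, 5.58 and 46.4 CPM, and in DZNep 6.45, 8.43, 6.12 and 12.5 CPM. ANKRD36C and the mitochondrial tRNA MT-TC were the other rule-named genes, with differences of -1.45 and -1.40.

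IRS4 fell by 1.36 on the log2 scale in replicates 1 and 4 and fell by 2.90 in replicates 2 and 3, a difference of 1.54 (edgeR adjusted p = 0.00235). PDXP, a phosphatase of pyridoxal phosphate, was at 8.27, 24.0, 22.6 and 5.24 CPM in Control and at 32.5, 23.6, 29.3 and 18 CPM in DZNep, where the pairs overlapped. It rose by 1.88 ± 0.17 (SE) in replicates 1 and 4, and its value in replicates 2 and 3 was 0.18 ± 0.15. SLC25A24, a mitochondrial carrier of ATP and phosphate, was at 28.5, 90.1, 73.5 and 12.6 CPM in Control and at 30.5, 32.1, 37.5 and 15.5 CPM in DZNep. It fell by 1.23 ± 0.15 in replicates 2 and 3, and its value in replicates 1 and 4 was 0.20 ± 0.16. CRYBG3 and PCDHGC3 had differences of 1.59 and 1.43, and PCDHGC3 shares its last exons with the other genes of its cluster.

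**Figure D5:**
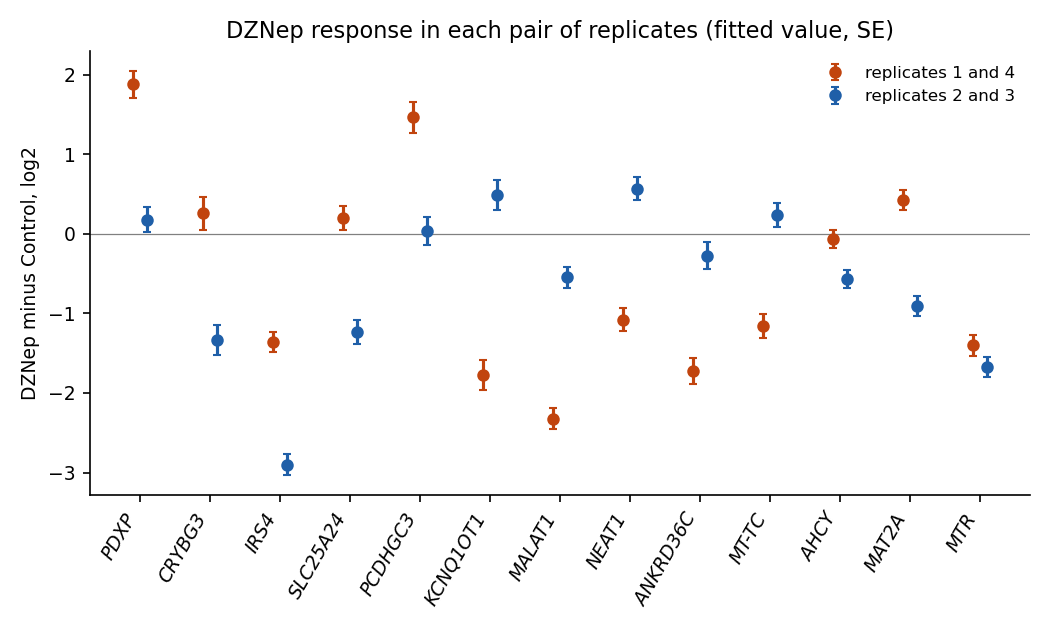
Fitted DZNep response (log2, DZNep minus Control) of the rule-named genes in replicates 1 and 4 and in replicates 2 and 3, with SE bars. MAT2A stands at 0.43 and -0.91, NEAT1 at -1.08 and 0.57, and MTR at -1.40 and -1.67.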

How the data were processed

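RNA from vehicle-treated and 100 µM DZNep-treated HEK293T cells (48 h) was sequenced in 8 libraries as paired 150 bp reads. Per the paper and the submitters' processing notes, the authors trimmed with Trimmomatic 0.36, aligned to GRCh38 using STAR 2.5.2b, and used featureCounts (Subread 1.5.2) to count uniquely mapped reads in exons. The authors deposited raw counts of 57500 genes and, for the 19118 genes with over 80 counts, a normalized signal that was checked to be the count over a size factor for each library. Strandedness, library type and annotation release are not given in the sources used here. Columns not used numbered 0. Symbols matched 56410 identifiers.

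Samples were grouped by the treatment and replicate number in the labels. The members, lists and rules were chosen with earlier results of these data known. Counts were fitted in R 4.3.3 with edgeR 4.0.16 (TMM, filterByExpr, quasi-likelihood, Benjamini-Hochberg adjustment), on treatment and pair of replicates for the differences, on treatment and number for the F test, and on number (block), treatment and their interaction with the pair for the responses. The level is TMM-normalized CPM. DESeq2 1.42.0 was an alternative. On simulated counts of 20216 genes, 200 of 200 genes with a 4-fold difference between the pairs were called apart, beside 20 unchanged genes. For a 4-fold difference in response, 197 of 200 were called, beside 12 unchanged genes. The simulation gave every gene the same spread and placed changes only in well-counted genes. It held no other replicate effect and no length trend, and its pairs were fixed beforehand. Its counts are therefore not error rates for these data, where the pairs were chosen on the libraries. Libraries of the same number deviated together, with correlations of 0.117, 0.464, 0.390 and 0.632 for numbers 1 to 4, and the numbers were treated as pairing libraries, although Control 1 correlated more with DZNep 4 (0.494). No 2 libraries agreed within sampling noise (chi-square per degree of freedom at least 16.1).

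Genes named in the text are the 10 highest and 10 lowest differences among genes apart with a mean log2 CPM of at least 3, up to 3 genes apart per list, up to 5 response differences per direction, and AHCY, MAT2A and MTR. Others were named after their values were seen. The sequence of 1 gene named in the text is not reported here. Lengths are those of GENCODE 44 canonical transcripts. Alternatives were other scalings, filters, thresholds, DESeq2, the deposited normalized table, no block, and each replicate number left out. A fit with each library's trend on transcript length removed was added after seeing the data. P-values set each effect against the spread that its fit left between these libraries. For the responses, the block removed the spread between replicate numbers.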

Additional observations from a re-analysis of the deposited data

Results flagged for a closer look

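Control 1 held 25043058 counts, far below the other 3 Control libraries, which held 39505214 to 41247898. DZNep 2 had 30153 genes with a count, below the 30855 to 30879 of the other 3 DZNep libraries. These were 2 of 110 groups of 4 libraries examined, and chance flags about 1 in 20 such groups. The difference in DZNep response between the pairs of replicates passed the thresholds in a test blocked on replicate number for PDXP (1.70 on the log2 scale), CRYBG3 (1.59), IRS4 (1.54), SLC25A24 (1.43), PCDHGC3 (1.43), MAT2A (1.33), KCNQ1OT1 (-2.26), MALAT1 (-1.78), NEAT1 (-1.65), ANKRD36C (-1.45) and MT-TC (-1.40). The pairs were chosen on these libraries, so this is a description. Without the block 0 of these genes passed, and without replicate 1 PDXP, CRYBG3, SLC25A24, PCDHGC3, MAT2A, ANKRD36C and MT-TC did not pass.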

How the results depend on the processing

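Genes apart and higher numbered 1117 and genes apart and lower 511. With library sizes alone they were 728 and 904, with at least 10 counts in every library 517 and 249, at a fold of 1.5 they were 2419 and 2174, and with no fold threshold 3932 and 4048. Without a filter 866 were lower, and with the length trend removed 731 were higher and 525 lower, of which 566 and 277 were shared with the 1117 and 511. Leaving out each replicate number gave 933 to 2538 higher and 414 to 1725 lower; fewer libraries then had to be ordered. The replicate number effect (5815) was 3127 with the length trend removed and 1300 to 7114 with a number left out, lowest without replicate 4. For the response differences (68 and 115), no filter gave 204 and 194, and adjusted p alone 251 and 221. At least 10 counts in every library gave 44 more positive, and DESeq2 gave 63 more negative. Leaving out a number gave 5 to 349 and 13 to 298, lowest without replicate 1 for the more positive and the more negative, with 1 library left per treatment in a pair, assumed to vary like the others. In the paired analysis, no replicate block gave 0 and 0. The response in replicates 1 and 4 called 1424 genes higher with at least 10 counts in every library, and in replicates 2 and 3 it called 1322. The causes were not tested. Of the 10 highest and 10 lowest differences between pairs, 0 reversed under the scalings, filters, DESeq2, length trend, normalized table and replicates left out. The other named differences were not recomputed. Depth limits genes of low count, and Control 1 the most.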
